A study of Mus musculus with 6 samples.

Results

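Mitosis, spindle and kinetochore genes were followed in mouse leukemia cells given an inhibitor of LSD1, the histone demethylase encoded by Kdm1a. The set was a named list of 56 genes, matched by symbol, and all 56 had a row among the 15035 of the deposited table. The rule used no measured value, but the list was drawn up with earlier results of these data known. The cells were bone marrow cells of the BALB/c strain that expressed mutant forms of CSF3R, a cytokine receptor of the granulocyte lineage, and of CEBPA, a myeloid transcription factor, both introduced by retrovirus. Every library carried both mutant genes, and the cells were kept in IMDM with FBS. One group received 4 nM GSK-LSD1 for 48 h and the other the solvent DMSO for 48 h, with 3 RNA-seq libraries in each. The labels name neither the mutations nor the number of clones or animals behind the cells, and do not tell whether each library had a culture of its own. The p-values therefore measure the spread between these libraries, which may be technical.

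A dividing cell enters mitosis when cyclin B and its kinase CDK1 become active. Condensin compacts the chromosomes, kinetochores built on the centromeres bind the spindle, and a checkpoint holds back the anaphase-promoting complex until every kinetochore is attached. Most genes of this machinery are transcribed late in the cell cycle through B-MYB, FOXM1 and the MuvB complex, and their summed RNA in a culture is widely read as a measure of cycling cells. In bulk samples of this kind, fewer cells in mitosis and less RNA per cell cannot be told apart.

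After GSK-LSD1, 16 of the 56 genes were lower, 4 were higher and 36 did not pass the threshold. The threshold was an adjusted p of 0.05 by limma on log2(value + 1), with Benjamini-Hochberg adjustment over the 11588 genes tested, and all 56 genes were among those tested. Among all tested genes 20.5% were lower and 20.6% higher, together 41.1%. In the mitotic set the shares were 28.6% lower and 7.14% higher, together 35.7%, so the whole share called was near that background. Without GSK-LSD1 replicate 3, 9 genes of the set were lower and 4 higher.

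Every difference in the set was small. Log2 fold changes, GSK-LSD1 over DMSO, ran between -0.40 for Cenpn and 0.23 for Nusap1, that is from 1.32-fold lower to 1.17-fold higher. The median over the 56 was -0.074, beside a median of -0.0079 over all tested genes, and 43 of the 56 estimates were below 0, or 76.8%, beside 51.2% of all tested genes. The genes were abundant, with mean values between 175 and 9489 scaled read counts (read counts the authors divided by a factor per library) and a median of 1068, against 351 for all tested genes. Of the 36 genes not past the threshold, 35 had a 95% interval of the log2 fold change inside -0.25 to 0.25, that is within 1.19-fold either way. The exception was Cdc25c, which encodes a phosphatase that activates CDK1, with an interval of -0.41 to 0.011, and its adjusted p of 0.124 was 0.0377 without DMSO replicate 1 and 0.0333 with quantile scaling. The GSK-LSD1 and DMSO values did not overlap for 26 of the 56 genes, 22 lower and 4 higher with GSK-LSD1, while over all tested genes 24.8% lay wholly lower and 24.7% wholly higher, together 49.5%.

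**Figure D1:**
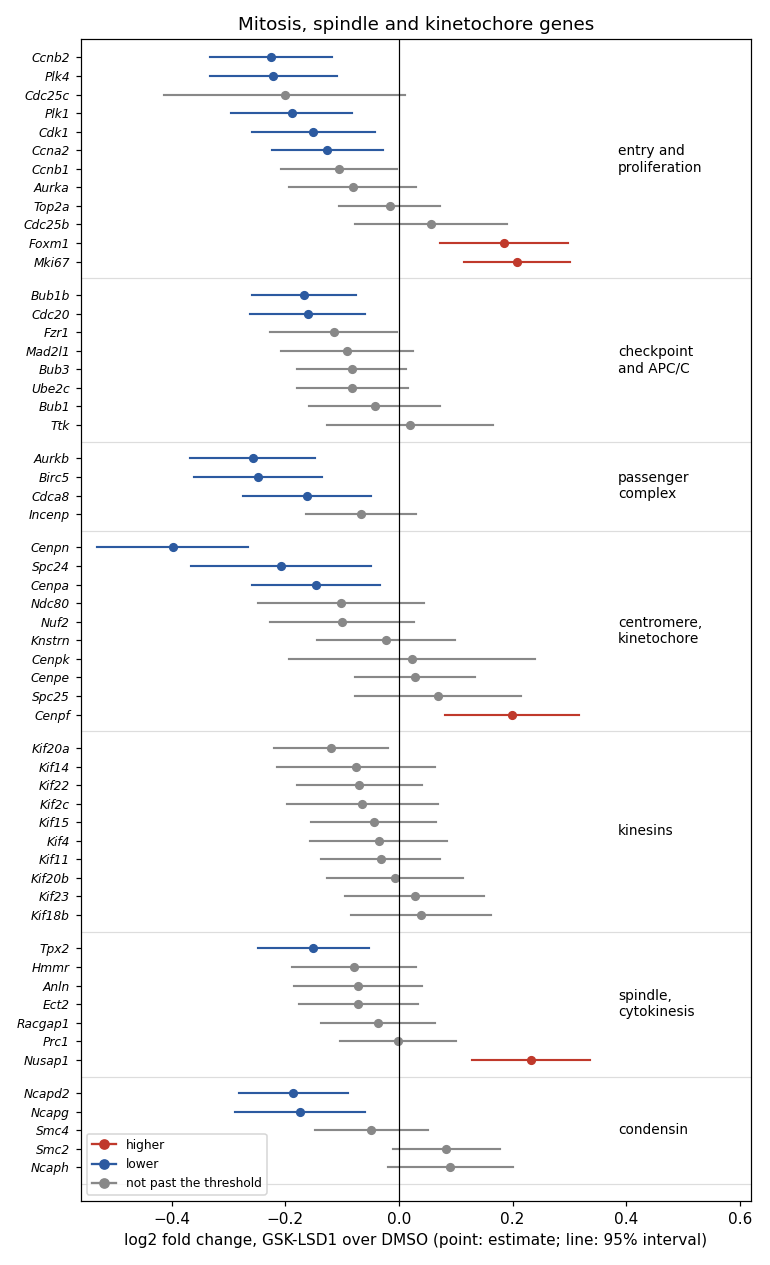
Log2 fold change, GSK-LSD1 over DMSO, of the 56 genes grouped by role (point: estimate from 3 libraries per group; line: 95% interval; red: higher, blue: lower, grey: not past the threshold). Estimates run from -0.40 for Cenpn to 0.23 for Nusap1, and all 10 kinesin genes are grey.

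**Figure D2:**
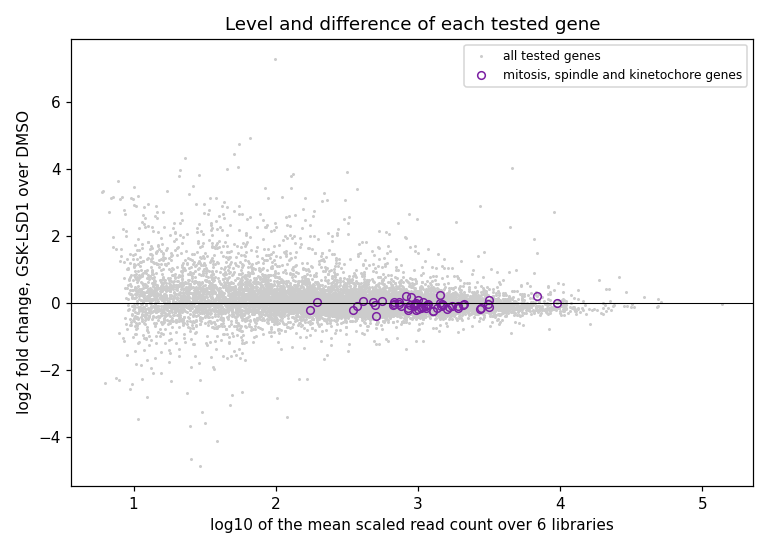
Log2 fold change, GSK-LSD1 over DMSO, against log10 of the mean scaled read count over 6 libraries, for the 11588 tested genes (grey points) and the 56 mitosis, spindle and kinetochore genes (purple circles). The circles lie in a narrow band around 0 between -0.40 and 0.23, whereas single genes of the table reach 7.28 and -4.86.

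Many promoters of the set share sequence features, which the rule for the set did not name. Most genes of mitosis are transcribed through MuvB, so an excess of the motif it binds is no independent result. Promoter windows from 250 bases before to 50 bases after the annotated start were taken from RefSeq (GRCm38.p6) and were matched for 47 of the 56 genes (not for Ccna2, Cdc25c, Aurkb, Incenp, Spc24, Kif20a, Tpx2, Smc4 and Foxm1). The cell cycle genes homology region (CHR), bound by MuvB, was searched as TTTGAA and in its variant form as TTCGAA, and the box bound by NF-Y as CCAAT, both on either strand (matches of both kinds may share bases). Genes could have several windows, 32851 in all, and a gene counted as matched if any of its windows held the motif. Genes with more annotated starts thus had more windows in which to match. A CHR stood in the windows of 36 of the 47 genes, or 76.6%, beside 16.4% of the 8920 tested genes with a window and 21.7% of all 27025 genes with one. A CCAAT box stood in 35 of the 47, or 74.5%, beside 43.4% of tested genes and 41.1% of all genes. Both were present in 31 of the 47, or 66.0%, beside 8.09% of tested genes. An E2F core, searched on either strand as TTCCCGC, with variant forms TTCGCGC, then also TTGCCGC, and lastly TTGGCGC, stood in 12 of the 47, or 25.5%, beside 19.9% of tested genes.

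These 5 stretches belong to 3 genes that were lower and 2 that were higher with GSK-LSD1, and each holds a CHR. Called genes with neither a CHR nor a CCAAT match in their window are not shown: Plk4 and Birc5, which were lower, and Nusap1, which was higher. Each runs from 130 bases before to 20 bases after the annotated start, on the gene's strand, with CHR and CCAAT matches on either strand in capitals.
Cenpn, lower (chr8:116921610-116921759, plus strand): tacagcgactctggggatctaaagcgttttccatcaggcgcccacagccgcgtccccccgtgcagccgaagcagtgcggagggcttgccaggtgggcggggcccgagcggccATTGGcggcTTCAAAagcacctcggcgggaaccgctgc
Ccnb2, lower (chr9:70421535-70421684, minus strand): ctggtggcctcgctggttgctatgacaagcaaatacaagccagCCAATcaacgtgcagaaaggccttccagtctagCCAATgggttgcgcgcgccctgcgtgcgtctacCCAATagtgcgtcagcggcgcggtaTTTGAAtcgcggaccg
Cdc20, lower (chr4:118437324-118437473, minus strand): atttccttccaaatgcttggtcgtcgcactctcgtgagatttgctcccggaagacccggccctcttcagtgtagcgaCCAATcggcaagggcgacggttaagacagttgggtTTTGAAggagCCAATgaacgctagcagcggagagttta
Mki67, higher (chr7:135716360-135716509, minus strand): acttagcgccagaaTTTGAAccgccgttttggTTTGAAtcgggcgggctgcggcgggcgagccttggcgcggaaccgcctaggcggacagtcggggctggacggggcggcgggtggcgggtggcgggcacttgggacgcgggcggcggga
Cenpf, higher (chr1:189688067-189688216, minus strand): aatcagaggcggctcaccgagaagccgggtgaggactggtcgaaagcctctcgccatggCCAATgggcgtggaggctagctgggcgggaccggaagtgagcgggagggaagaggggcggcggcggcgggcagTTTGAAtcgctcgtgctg

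Ccnb2 holds 3 CCAAT boxes followed by a CHR that begins 4 bases after the start, and Cenpf, which moved the other way, has a CCAAT box and a CHR that begins 2 bases after the start. In Mki67 the 2 CHR matches lie farther upstream, and the stretch holds no CCAAT, though its full window has a CCAAT match outside the stretch. Genes of either direction had a CHR. Of the 36 with one, 2 rose, 10 fell and 24 did not pass, with a median log2 fold change of -0.070, and of the 11 without one, 1 rose, 2 fell and 8 did not pass, with a median of -0.091. These matches are letters in a window, and binding was not measured.

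**Figure D3:**
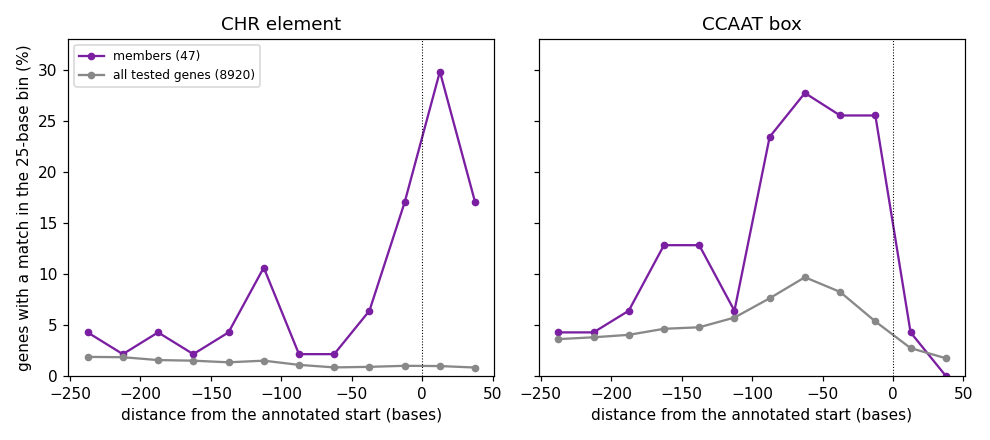
Share of genes with a CHR (left) or CCAAT (right) match centred in each 25-base bin, against distance from the annotated start in bases, for 47 members of the set (purple) and 8920 tested genes (grey), using 1 window per gene. The CHR share of the set is highest in the 25 bases after the start, at 29.8% beside 0.964% of tested genes, and its CCAAT share is highest between 75 and 50 bases before the start, at 27.7% beside 9.66%.

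Among the 12 genes of mitotic entry and proliferation, 5 fell (41.7%), 2 rose (16.7%) and 5 did not pass. Beside these shares, 20.5% were lower and 20.6% higher among all tested genes, and each role group is small. Mki67 encodes the proliferation antigen Ki-67 that coats mitotic chromosomes (chromosome 7, 135689784 to 135716361, GRCm38), and its values were 7224, 7491 and 7316 in the GSK-LSD1 libraries, against 6478, 5899.9 and 6731 in the DMSO libraries. All 3 GSK-LSD1 libraries lay above all 3 DMSO libraries, a 1.15-fold rise (log2 fold change 0.21, SE 0.0459, adjusted p = 0.000381). Foxm1, which encodes the transcription factor that drives late cell cycle genes, had 966, 924 and 940.2 in the GSK-LSD1 libraries, against 835, 853 and 802 in the DMSO libraries. It was 1.14-fold higher, again without overlap (log2 fold change 0.18, SE 0.0551, adjusted p = 0.00682); exons of 2 neighbouring models, Tex52 and Gm44596, overlap it on the same strand.

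The cyclin B2 gene Ccnb2 and 2 Polo-like kinase genes fell. Ccnb2 had 886, 898 and 893 in the GSK-LSD1 libraries, against 1043, 1037 and 1048 in the DMSO libraries, so that the gap between the groups was wider than either group (1.17-fold lower, log2 fold change -0.22, SE 0.0529, adjusted p = 0.00078). Plk4, which encodes the kinase that starts centriole duplication, had 792, 777 and 776 in the GSK-LSD1 libraries, against 927, 896 and 911 in the DMSO libraries. These groups did not overlap either (1.17-fold lower, log2 fold change -0.22, SE 0.0551, adjusted p = 0.00137). Plk1, the gene of a kinase active from mitotic entry to cytokinesis, had 1557, 1563 and 1365 in the GSK-LSD1 libraries, against 1712, 1722 and 1667 in the DMSO libraries. GSK-LSD1 replicate 3 was the lowest of the 6, and the fall (log2 fold change -0.19, SE 0.0524, adjusted p = 0.00381) was not past the threshold without it (log2 fold change -0.12, adjusted p = 0.0953).

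Cdk1, the gene of the kinase at the centre of mitotic entry, had 1039.6, 1115 and 1108 in the GSK-LSD1 libraries, against 1144, 1245 and 1233 in the DMSO libraries. The highest GSK-LSD1 library lay just under the lowest DMSO library, and the fall was 1.11-fold (log2 fold change -0.15, SE 0.0535, adjusted p = 0.0228). That call was lost without GSK-LSD1 replicate 1 (adjusted p = 0.131), DMSO replicate 2 (0.0915) or DMSO replicate 3 (0.0538). Ccna2, the cyclin A gene, averaged 3032 ± 118 with GSK-LSD1 and 3312 ± 216 with DMSO (SD, n = 3 each), with overlapping groups and a log2 fold change of -0.13 (adjusted p = 0.0343). Without GSK-LSD1 replicate 1, GSK-LSD1 replicate 3 or DMSO replicate 3 its adjusted p was 0.151, 0.129 or 0.195, and with no filter, median scaling or quantile scaling 0.0535 to 0.119. Without DMSO replicate 3 the log2 fold change of Ccna2 was -0.073.

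Cyclin B1 itself did not pass. Ccnb1 had 1479, 1352 and 1396 in the GSK-LSD1 libraries, against 1489, 1536 and 1521 in the DMSO libraries, groups that did not overlap but lay close together (log2 fold change -0.11, 95% interval -0.21 to -0.0042, adjusted p = 0.0891). Reads of Ccnb1 and Ccnb2 can be shared with their annotated pseudogenes, Ccnb1-ps and Ccnb2-ps. Top2a, the topoisomerase gene that untangles sister chromatids and the most abundant of the 56, had 9598, 9278 and 9424 in the GSK-LSD1 libraries, against 9684, 9049.9 and 9902 in the DMSO libraries. Its groups overlapped fully and its log2 fold change was -0.016 (95% interval -0.10 to 0.073). Aurka, the gene of the spindle pole kinase Aurora A, and Cdc25b, a phosphatase gene, did not pass, with log2 fold changes of -0.081 and 0.057.

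**Figure D4:**
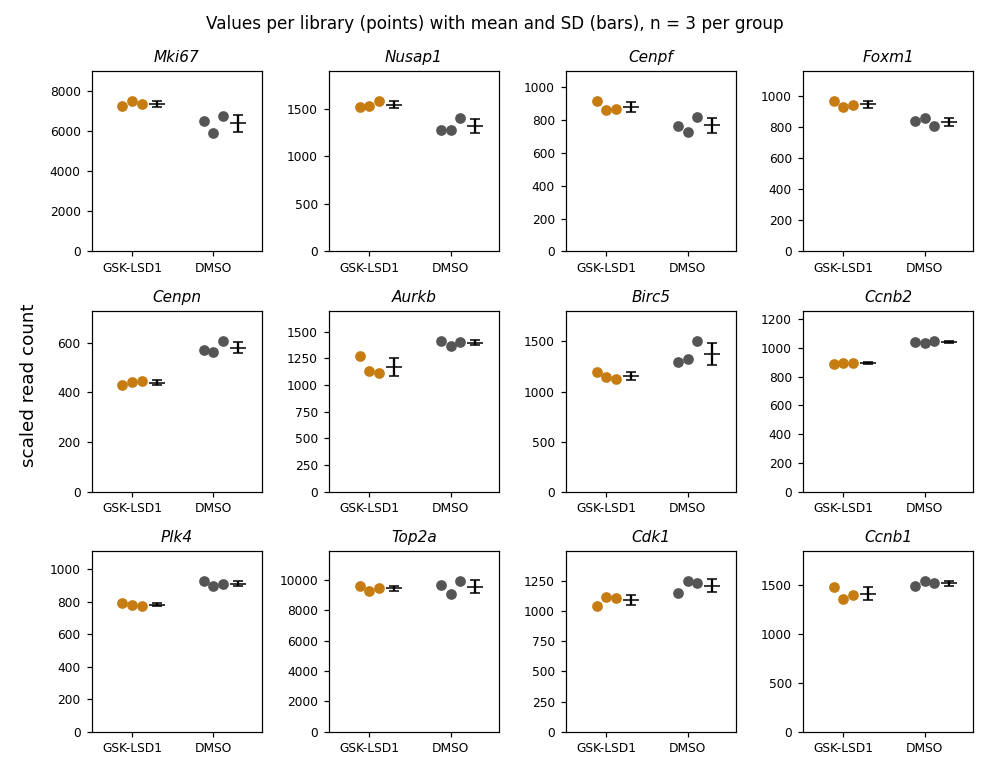
Scaled read counts in each library (points) of 12 of the genes, GSK-LSD1 left of DMSO in each panel, with mean and SD (n = 3 each) beside the points. Mki67, Nusap1, Cenpf and Foxm1 have all 3 GSK-LSD1 libraries above the DMSO libraries, Cenpn, Aurkb, Birc5, Ccnb2, Plk4, Cdk1 and Ccnb1 have them below, and the groups of Top2a overlap.

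Of the 8 genes for the spindle checkpoint and for turning on the anaphase-promoting complex, 2 fell (25%) and 6 did not pass. Of all tested genes 20.5% were lower. Bub1b, which encodes the checkpoint protein BUBR1, had 2678, 2525 and 2613 in the GSK-LSD1 libraries, against 2996, 2866 and 2912 in the DMSO libraries. The groups were apart (1.12-fold lower, log2 fold change -0.17, SE 0.0451, adjusted p = 0.00296). Cdc20, which encodes the activator of the anaphase-promoting complex that the checkpoint holds inactive, had 1269, 1276 and 1286 in the GSK-LSD1 libraries, against 1451, 1461 and 1372 in the DMSO libraries. It too was lower in each GSK-LSD1 library (1.12-fold, log2 fold change -0.16, SE 0.05, adjusted p = 0.00946).

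The other 6 genes did not pass. Bub1, Bub3 and Mad2l1, whose products gather at unattached kinetochores or form the inhibitory complex, had log2 fold changes of -0.043, -0.083 and -0.091. Ttk, the gene of the kinase MPS1 that starts checkpoint signalling, had 0.020. Ube2c, a ubiquitin-conjugating enzyme gene of the anaphase-promoting complex, was at -0.082, and Fzr1, which encodes the activator CDH1 of late mitosis and G1, at -0.11 with a 95% interval of -0.23 to -0.0035. The adjusted p of Fzr1 was 0.0922, and 0.0293 without DMSO replicate 3.

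Of the 4 genes of the chromosomal passenger complex, which corrects faulty kinetochore attachments and then steers cytokinesis, 3 fell (75%). Of all tested genes 20.5% were lower, and the share of this group rests on 4 genes. Aurkb, the gene of its kinase Aurora B (chromosome 11, 69045647 to 69051664, GRCm38), had 1270.2, 1129 and 1110.5 in the GSK-LSD1 libraries, against 1413, 1369 and 1407 in the DMSO libraries. No library of one group reached the other (1.2-fold lower, log2 fold change -0.26, SE 0.0539, adjusted p = 0.000194). Birc5, which encodes survivin, had 1197, 1150.0 and 1122 in the GSK-LSD1 libraries, against 1295, 1329 and 1504 in the DMSO libraries, with DMSO replicate 3 the highest (1.19-fold lower, log2 fold change -0.25, SE 0.0553, adjusted p = 0.000414). Cdca8, the borealin gene, averaged 999 ± 48.9 with GSK-LSD1 and 1118 ± 60.6 with DMSO (SD, n = 3 each; log2 fold change -0.16, SE 0.0557, adjusted p = 0.0186).

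The call of Cdca8 was lost without GSK-LSD1 replicate 2 (adjusted p = 0.0506), GSK-LSD1 replicate 3 (0.134) or DMSO replicate 2 (0.118). Incenp, which encodes the scaffold of the complex, had 1936, 2032 and 2119.8 in the GSK-LSD1 libraries, against 2122, 2081 and 2170.1 in the DMSO libraries. Those groups overlapped (log2 fold change -0.067, 95% interval -0.16 to 0.030), and the difference between Incenp and its partners was not tested.

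At the centromere and kinetochore, 3 of 10 genes were lower (30%), 1 was higher (10%) and 6 did not pass. Among all tested genes the shares were 20.5% lower and 20.6% higher. Cenpn encodes a reader of the CENP-A nucleosome in the inner kinetochore (chromosome 8, 116921730 to 116941507, GRCm38), and its values of 432, 441 and 448 in the GSK-LSD1 libraries, against 570.3, 564 and 607 in the DMSO libraries, made it the largest difference of the whole set. The gap between the groups was wider than the spread within either (1.32-fold lower, log2 fold change -0.40, SE 0.0654, adjusted p = 6.07e-06). Cenpf, which encodes a large protein of the outer kinetochore and nuclear envelope, went the other way with 914, 860.1 and 862 in the GSK-LSD1 libraries, against 761, 724 and 813 in the DMSO libraries. It was 1.15-fold higher without overlap (log2 fold change 0.20, SE 0.0584, adjusted p = 0.00597).

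Cenpa, the gene of the centromeric histone H3 variant itself, averaged 803 ± 10.7 with GSK-LSD1 and 889 ± 31.1 with DMSO (SD, n = 3 each; log2 fold change -0.15, SE 0.0557, adjusted p = 0.0344). Its adjusted p was 0.0631 to 0.124 without any 1 of the GSK-LSD1 libraries or without DMSO replicate 2, and 0.0597 with the libraries rescaled by their median. Spc24 belongs to the 4-part NDC80 complex that grips microtubules, and had 339, 309 and 321 in the GSK-LSD1 libraries, against 383, 397 and 341 in the DMSO libraries. The highest GSK-LSD1 value lay close under the lowest DMSO value (log2 fold change -0.21, SE 0.0782, adjusted p = 0.0313), and the call was lost without GSK-LSD1 replicate 2 (adjusted p = 0.119), GSK-LSD1 replicate 3 (0.079), DMSO replicate 1 (0.0832) or DMSO replicate 2 (0.149). The other members of that complex, Ndc80, Nuf2 and Spc25, did not pass, with log2 fold changes of -0.10, -0.10 and 0.068. Nor did Cenpe, a kinetochore motor gene, at 0.028, Cenpk of the inner kinetochore at 0.023 or Knstrn, a gene of spindle attachment, at -0.023.

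None of the 10 mitotic kinesin genes passed by limma, beside 41.1% of all tested genes, and 1 had an unadjusted p under 0.05. Their log2 fold changes ran from -0.12 for Kif20a to 0.039 for Kif18b with a median of -0.040, and the widest 95% bound of any of them was -0.22, that is 1.17-fold. Kif11, which encodes the Eg5 motor that pushes the spindle poles apart, had 2138, 1999.8 and 2119 in the GSK-LSD1 libraries, against 2148, 1962 and 2296 in the DMSO libraries. DMSO libraries held both the highest and the lowest of these values, and the 95% interval was -0.14 to 0.073.

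Kif20a, which encodes a motor of the central spindle, came closest to a call, with 1644, 1603 and 1502 in the GSK-LSD1 libraries, against 1685, 1689 and 1783 in the DMSO libraries. Its groups did not overlap (log2 fold change -0.12, adjusted p = 0.0527), and the adjusted p was 0.0448 without GSK-LSD1 replicate 1, 0.0462 without DMSO replicate 1 and 0.0468 with library weights. Kif23, whose product forms centralspindlin with that of Racgap1, was at 0.028. Kif2c, the gene of a microtubule depolymerase at centromeres, was at -0.064, and Kif4 and Kif22, genes of chromosome-bound motors, were at -0.036 and -0.070. Kif14 and Kif20b, genes of cytokinesis motors, and Kif15, which helps to keep the spindle bipolar, were at -0.076, -0.0067 and -0.045. Reads of Kif4 and Kif22 can be shared with the annotated pseudogenes Kif4-ps and Kif22-ps.

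The 7 genes of spindle assembly, midzone and cytokinesis held the largest rise and 1 fall. Each is 14.3% of the group, beside 20.6% higher and 20.5% lower among all tested genes. Nusap1, which encodes a protein that bundles spindle microtubules near chromosomes (chromosome 2, 119618298 to 119651244, GRCm38), had 1519, 1533 and 1583 in the GSK-LSD1 libraries, against 1274, 1276 and 1399.6 in the DMSO libraries. All GSK-LSD1 libraries lay above all DMSO libraries (1.17-fold higher, log2 fold change 0.23, SE 0.0511, adjusted p = 0.000367). Exons of Nusap1 overlap those of Oip5 on the other strand. With no word on whether counting used strand, reads on the bases they share cannot be told apart. Oip5 itself had 204, 194.6 and 196.6 in the GSK-LSD1 libraries, against 213, 216 and 231 in the DMSO libraries. It did not pass (log2 fold change -0.15, adjusted p = 0.205 by limma), and the part of shared reads was not tested.

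Tpx2, which encodes the activator of Aurora A on the spindle, had 1821, 1852 and 1731 in the GSK-LSD1 libraries, against 1922, 2016 and 2061 in the DMSO libraries. The groups were close but apart (1.11-fold lower, log2 fold change -0.15, SE 0.0482, adjusted p = 0.0114), and the call was lost without GSK-LSD1 replicate 3 (adjusted p = 0.0987). The midzone and cleavage furrow genes did not pass: the log2 fold change was -0.0013 for Prc1, which crosslinks midzone microtubules, -0.071 for the anillin gene Anln, -0.071 for Ect2, which switches on RhoA at the furrow, and -0.036 for Racgap1. Hmmr, a gene of spindle assembly and hyaluronan binding, was at -0.079. The interval of Prc1, -0.10 to 0.10, was centred on 0.

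Of the 5 condensin genes, 2 fell (40%, beside 20.5% of all tested genes). Both encode subunits of condensin I alone, but the 5 include no subunit of condensin II alone. From a further list, Ncapd3 and Ncapg2 of condensin II also fell (log2 fold changes -0.31 and -0.13), and Ncaph2 at -0.095 did not pass. Ncapd2 had 2627, 2473 and 2588 in the GSK-LSD1 libraries, against 3028, 2985 and 2737 in the DMSO libraries, with DMSO replicate 3 the lowest DMSO library (1.14-fold lower, log2 fold change -0.19, SE 0.0473, adjusted p = 0.00171). Ncapg had 977, 931 and 925 in the GSK-LSD1 libraries, against 1026, 1022 and 1151 in the DMSO libraries, with DMSO replicate 3 the highest (log2 fold change -0.17, SE 0.0564, adjusted p = 0.0127); without GSK-LSD1 replicate 2, GSK-LSD1 replicate 3 or DMSO replicate 3 its adjusted p was 0.0512, 0.0632 or 0.0945. Ncaph, the third subunit of condensin I, was at 0.090 (95% interval -0.020 to 0.20), and the ATPase genes Smc2 and Smc4, which condensin II shares, at 0.083 and -0.049. Smc2 was past the threshold with quantile scaling (log2 fold change 0.13, adjusted p = 0.0226) and without DMSO replicate 3 (0.12, adjusted p = 0.0221).

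In GENCODE vM21, 16 of the 56 genes share exonic bases with an opposite-strand model, among them 6 that were called: Ccna2, Plk1, Cdca8, Cdc20, Nusap1 and Ncapg. Their values are uncertain to the extent that reads of the overlapping gene were counted with them. Exons of Top2a and Ncapd2 overlap small or predicted models on the same strand.

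Further genes of the same pathways were taken from lists. Their shares called stand beside 20.6% higher and 20.5% lower among all tested genes. Among 16 other mitotic kinases and regulators, 1 was higher (6.25%) and 4 lower (25%). Bora, which encodes the cofactor with which Aurora A activates PLK1, averaged 505 ± 36 with GSK-LSD1 and 613 ± 35.1 with DMSO (SD, n = 3 each; log2 fold change -0.28, adjusted p = 0.001). Cks2 and Cks1b, genes of small CDK-binding proteins, fell with log2 fold changes of -0.28 and -0.23. Cdkn3, the gene of a phosphatase that acts on CDKs, rose (log2 fold change 0.38, adjusted p = 0.0178), a call that was lost with quantile scaling (adjusted p = 0.176) and without GSK-LSD1 replicate 1, GSK-LSD1 replicate 2, DMSO replicate 1 or DMSO replicate 2 (0.0528 to 0.077).

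Of 31 other centromere and kinetochore genes, 1 was higher (3.23%) and 8 lower (25.8%). Cenpw, of the inner kinetochore, averaged 69.6 ± 12.7 with GSK-LSD1 and 106 ± 12.7 with DMSO (SD, n = 3 each), a 1.53-fold fall (adjusted p = 0.00101), and Cenph and Pmf1, of the inner and outer kinetochore, fell with log2 fold changes of -0.35 and -0.31. Sgol2a, a shugoshin gene that protects centromeric cohesion, rose with 0.30 (adjusted p = 0.000817). Among 21 genes of the anaphase-promoting complex, separase and the checkpoint, 7 were lower (33.3%) and none higher. Mad2l1bp, whose product helps to silence the checkpoint, fell 1.28-fold, and Anapc16 and Mad1l1 had log2 fold changes of -0.25 and -0.22. The call of Anapc16 was lost without GSK-LSD1 replicate 3 (adjusted p = 0.113) or DMSO replicate 2 (0.0639), and that of Mad1l1 without GSK-LSD1 replicate 2 (0.0574) or DMSO replicate 2 (0.0617).

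Of 14 cohesin and condensin II genes, 3 were lower (21.4%, beside 20.5% of all tested genes) and none higher. They were Ncapd3 of condensin II, with 1265 ± 35.8 with GSK-LSD1 and 1566 ± 85.2 with DMSO (SD, n = 3 each; log2 fold change -0.31, adjusted p = 9.12e-06), the cohesin gene Smc1a (-0.19) and Ncapg2 (-0.13, adjusted p = 0.0437). Smc1a had 2854, 2802 and 2763 in the GSK-LSD1 libraries, against 3096, 3000.5 and 3548 in the DMSO libraries, and without DMSO replicate 3, the highest of the 6, its log2 fold change was -0.12 and still past the threshold. Of 40 other spindle, centrosome and cytokinesis genes, 5 were higher (12.5%) and 4 lower (10%), both below the shares of all tested genes. Stil and Aspm, genes of centriole duplication and of the spindle poles, rose with 0.24 and 0.23, and Numa1, a spindle pole gene, with 0.19. Tubg1, the gamma-tubulin gene, fell with -0.24, Tacc3 with -0.17 and Tubgcp3 with -0.16. Single libraries ended 3 of these calls. Ncapg2 had an adjusted p of 0.067 to 0.167 without DMSO replicate 1 or any GSK-LSD1 library. Tacc3 had 0.0735 without GSK-LSD1 replicate 2. Tubgcp3 had 0.129 to 0.207 without GSK-LSD1 replicate 2, GSK-LSD1 replicate 3, DMSO replicate 2 or DMSO replicate 3. Ncapg2 also lost its call with no filter (adjusted p = 0.0516), quantile scaling (0.124) and median scaling (0.0785). Tubgcp3 lost its call with no filter (0.06) and median scaling (0.0679) as well.

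Of 23 genes for MuvB, MYB, E2F and NF-Y proteins, the transcriptional regulators of these genes, 5 were higher and 5 lower. Each is 21.7% of the list, near the 20.6% higher and 20.5% lower among all tested genes. Mybl2, which encodes B-MYB, the partner of MuvB at CHR promoters, had 812, 762 and 829 in the GSK-LSD1 libraries, against 1119, 1172 and 1074 in the DMSO libraries. It was 1.4-fold lower with groups far apart (log2 fold change -0.49, SE 0.0559, adjusted p = 6.8e-09). E2f4, which encodes an E2F of the repressive DREAM complex, had 1906, 1911 and 1841 in the GSK-LSD1 libraries, against 2509.8, 2791 and 2522 in the DMSO libraries and was 1.38-fold lower (log2 fold change -0.47, SE 0.0485, adjusted p = 6.76e-10). Tfdp1, the gene of an E2F dimer partner, fell with a log2 fold change of -0.19. E2f7, the gene of an atypical repressor E2F, Tfdp2, of another dimer partner, and the retinoblastoma gene Rb1 rose, at 0.39, 0.32 and 0.29. Foxm1 and Mybl2, genes of activators of late cell cycle transcription, thus moved in opposite directions.

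DNA replication genes, which peak earlier in the cycle, were taken for comparison. Of 41 such genes 30 were lower and none higher, or 73.2%, beside 28.6% lower in the mitotic set and 20.5% of all tested genes, and the list median was -0.22, beside -0.074. The difference between the lists was not tested. Cdt1, a replication licensing gene, had 1226, 1217 and 1163 in the GSK-LSD1 libraries, against 1693, 1654 and 1498 in the DMSO libraries, a 1.34-fold fall (adjusted p = 3.36e-08), while Prim2 and Gins2, of the primase and the replicative helicase, fell and stood at -0.38 and -0.38 on the log2 scale. A CHR stood in the windows of 8 of 32 replication genes and an E2F core in those of 65.6%, beside 76.6% and 25.5% in the mitotic set.

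**Figure D5:**
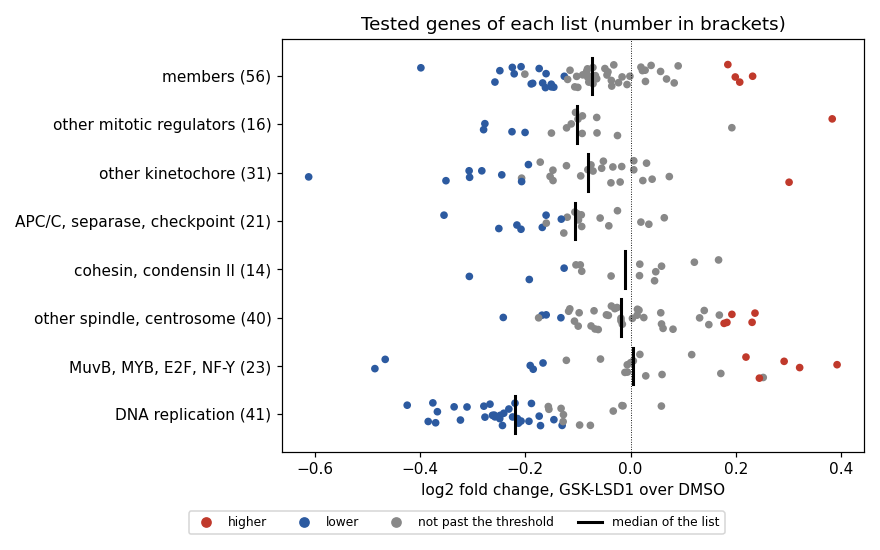
Log2 fold change, GSK-LSD1 over DMSO, of each tested gene of the 56-gene set and of 7 further lists, with the number tested in brackets (red: higher, blue: lower, grey: not past the threshold, bar: list median). The median is -0.074 for the set and -0.22 for the 41 DNA replication genes, and the regulator list holds 5 higher and 5 lower genes.

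Across libraries, the 56 genes together took 0.814% to 0.824% of the total value with GSK-LSD1 and 0.814% to 0.850% with DMSO, so the groups overlapped. That sum is weighted to abundant genes: Top2a averaged 9434 with GSK-LSD1 and 9545 with DMSO, and Mki67, which rose, 7344 and 6370. By contrast, 43 of the 56 estimates were below 0. How far Mki67 set the overlap was not tested. DMSO replicate 3 held the highest of the 3 DMSO values for 30 of the 56 genes, and DMSO replicate 2 the lowest for 26. The median SD on the log2 scale was 0.050 with GSK-LSD1 and 0.060 with DMSO. Without DMSO replicate 3 the set median was -0.049, and without DMSO replicate 2 it was -0.093.

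Totals of scaled values were 9877460 to 9908370 with GSK-LSD1 and 9960630 to 10107900 with DMSO, and reckoned in units of each library's lowest value, depth was 9572640 to 10199500 reads. The drug target gene Kdm1a averaged 1227 ± 16.3 with GSK-LSD1 and 1257 ± 59.6 with DMSO (SD, n = 3 each; log2 fold change -0.034, adjusted p = 0.631); GSK-LSD1 inhibits the enzyme, so the RNA does not check the treatment. Of 12 myeloid markers all were present, and their summed value was 22501 to 23336 with GSK-LSD1 and 18239 to 19723 with DMSO, with 8 higher and 3 lower. Over all tested genes 20.6% were higher and 20.5% lower. The 8 mast cell and basophil markers summed to 40888 to 42339 with GSK-LSD1 and 31817 to 34116 with DMSO, with 3 higher, 1 lower and 4 not passed. Most of that rise was Cpa3, at 22440 to 23640 with GSK-LSD1 and 13600 to 15440 with DMSO. Fcer1a went the other way, at 4325 to 4820 with GSK-LSD1 and 5655 to 5929 with DMSO. The 5 megakaryocyte markers analysed here summed to 1727 to 1794 with GSK-LSD1 and 1923 to 2055 with DMSO. Of the 4 tested, 1 was higher, 2 were lower and 1 did not pass. Most of that sum was Itga2b, at 1603 to 1650 with GSK-LSD1 and 1795 to 1940 with DMSO. Gp1ba went the other way, at 51.01 to 65.21 with GSK-LSD1 and 28.32 to 36.83 with DMSO. The 3 stromal markers analysed here, mostly Pdgfrb, summed to 333 to 359 with GSK-LSD1 and 250 to 254 with DMSO. Col1a2, Col3a1, Pdgfra and Cxcl12 of that list had no row. Of the endothelial list only Pecam1 had a row, at 4334 to 4443 with GSK-LSD1 and 3531 to 4002 with DMSO. Cdh5, Kdr, Tek and Emcn had none. The 3 B cell and 3 T cell markers summed to at most 14.6 with GSK-LSD1 and 6.94 with DMSO, and none reached the filter. The 5 erythroid markers analysed here were all lower, with sums of 42.8 to 65.2 with GSK-LSD1 and 198 to 249 with DMSO. Of 10 tested immediate stress genes 3 were higher and 3 lower (30% each), and the rises were larger than any difference in the mitotic set. Fos rose 2.67-fold, Zfp36 2.17-fold and Jun 1.87-fold, while Junb fell 1.28-fold and Hsph1 and Egr1 each 1.18-fold. The call of Egr1 was lost without GSK-LSD1 replicate 1 (adjusted p = 0.055). The part of these shifts in the mitotic genes was not tested.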

How the data were processed

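RNA-seq was done on 3 libraries from cells given GSK-LSD1 and 3 from cells given DMSO, grouped by their titles. The authors deposited 1 table with gene symbols in rows and a normalised signal for each library. Judged by its values, the signal is a read count divided by a factor per library, since every value was a whole multiple of the smallest of its library within 0.05 read. Per the submitters' processing notes, reads were handled with the builds mm10 and GRCm38 and the programs STAR and DESeq2, with neither versions nor roles. Not given in the sources used here are the counting program, its use of strand and any filter. Symbols of 22 rows had become dates and stayed in the tests unnamed.

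Genes with a value of at least 10 in at least 3 libraries were tested, 11588 of 15035. The test was limma 3.58.1 in R 4.3.3 on log2(value + 1) with a variance trend, two-sided, without a replicate term. A check on simulated data set criteria for 2-fold changes and unchanged genes only. It set none for differences as small as those of the set. Fold changes are on that log2 scale. Count models were not used: the smallest values of DMSO replicates 2 and 3 are too near 1 to meet the criterion set for recovering reads. Chi-square per degree of freedom between libraries was 1.57 to 1.86 within GSK-LSD1 and 2.52 to 3.51 within DMSO, above counting noise alone, so none was taken for a library deposited a second time; this does not show separate cultures. The members and gene lists were chosen with earlier results of these data known. Any member could be named; those past the threshold are given in full, up to 3 per direction and role, with Mki67, Top2a, Cdk1, Ccnb1 and Foxm1 in any case, and further members shown per library were chosen after their values were seen. From other lists up to 3 genes per direction with a mean of at least 50 were named. Alternatives were 2 pseudocounts, 2 filters, 2 scalings, library weights, a replicate block and leaving out each library.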

Additional observations from a re-analysis of the deposited data

How the results depend on the processing

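The counts of lower members were between 9 and 17 and those of higher members 4 or 5 when single libraries were left out, the 9 without GSK-LSD1 replicate 3, which also gave 1961 lower genes in all; the cause was not tested. Under the other alternatives 14 to 17 members were lower and 4 or 5 higher, and the set median stayed between -0.074 and -0.059. Of the 20 called members, 12 kept their call in all 14 alternatives run, 8 lost it in at least 1, and none changed direction. With the replicate number as a block, 4 members were higher and 16 lower, and 2345 genes in all were higher and 2316 lower. The labels do not say that a number marks a shared culture, and the deviations of same-numbered libraries correlated at -0.024, -0.028 and -0.0077 over the tested genes, so the libraries were not treated as pairs. Of the named genes, the block ended only the calls of Ncapg2 (adjusted p = 0.0504) and Tubgcp3 (0.0631). Direction turned only for 12 members that were not called. With quantile scaling the log2 fold change was 0.041 for Top2a, -0.037 for Cenpk, 0.0059 for Kif20b, 0.039 for Prc1 and 0.00061 for Racgap1. Kif20b was at 0.0062 with library weights and 0.0086 with median scaling, an alternative added after seeing the data, under which Prc1 was at 0.014. Leaving out single libraries gave -0.054 to 0.011 for Top2a, -0.057 to 0.15 for Cenpk, -0.061 to 0.045 for Kif20b, -0.038 to 0.020 for Prc1, -0.062 to 0.028 for Knstrn, -0.023 to 0.058 for Kif23, -0.078 to 0.0076 for Bub1, -0.068 to 0.084 for Ttk, -0.091 to 0.022 for Kif11, -0.092 to 0.0047 for Kif15 and -0.10 to 0.014 for Smc4. TMM scaling and the planned count models were not run. The smallest values of DMSO replicates 2 and 3 were too near 1 to meet the criterion set for recovering reads. All values were nevertheless whole multiples of the smallest of their library. With 3 libraries per group the median standard error over the set was 0.055 on the log2 scale. The smallest called difference was that of Ccna2, -0.13, and Cdc25c at -0.20 was not past the threshold.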

Other observations

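Per kilobase of annotated exon (scaled read counts over the merged exons of GENCODE vM21, GRCm38), the levels of the 56 genes ran from 33.02 for Cdc25c to 1047 for Top2a in GSK-LSD1 libraries, and from 37.2 for Cenpk to 1059 for Top2a in DMSO libraries. Ccna2 had 743 per kilobase in GSK-LSD1 libraries and 811 in DMSO libraries. Plk1 had 679.8 per kilobase in GSK-LSD1 libraries and 773 in DMSO libraries. Cenpf, which was higher with GSK-LSD1, had 56.9 per kilobase in GSK-LSD1 libraries and 49.6 in DMSO libraries. Merged exons include rare transcript ends, which lowers the level of genes with many annotated forms.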
